A study of Mus musculus with 8 samples.

Results

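Chemokine ligands and receptors were examined in the epithelium-enriched fraction of the distal mouse lung after chronic cigarette smoke (CS). All genes whose symbol begins with Ccl, Cxcl, Cx3cl, Xcl, Ccr, Cxcr, Cx3cr or Xcr followed by a digit were taken, which gave 58 of the 22756 genes counted, 38 ligands and 20 receptors. Reads on the coding sequence (CDS counts) had been deposited for 8 RNA-Seq libraries, a male and a female library for each of 4 groups, α7G control, α7G CS, α7E260A:G control and α7E260A:G CS. The mice were adults of a mostly C57BL/6 strain, and the CS groups inhaled side-stream smoke on 5 days per week for 4 months. Both lines carry a tauGFP reporter (Chrna7-IRES-tauGFP) behind the gene of the nicotinic acetylcholine receptor α7. The α7G mice are the control genotype, and α7E260A:G mice also have the E260A point mutation in α7, which restricts its calcium-linked signaling. The lungs of all groups were lavaged to remove cells of the airspaces, and CD45-positive leukocytes were then depleted with magnetic beads. The number of mice behind a library is not stated in the sources used here, so that every p-value measures the spread between these libraries, and the spread within a group is a difference between the sexes or between the libraries, which cannot be told apart.

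Total CDS counts were between 8020726 and 10944100 per library, and a count of 3, taken as the floor, corresponded to 0.274 to 0.374 RPM (counts scaled to a library total of 1000000). The counts depended on CDS length to a different degree in each library. The slope (log2 of a library over the mean of all libraries, per doubling of length) was 0.418 in the male α7E260A:G control, -0.292 in the female α7E260A:G control and between -0.23 and 0.219 in the other 6. Both α7E260A:G controls thus lay outside the range of the other libraries, on opposite sides, and counts that moved when 1 of them was left out are given with and without it. The label of the cells as epithelium was checked with the summed RPM of markers, in which the most abundant genes of a list weigh most. Club cell transcripts summed to 18706 to 78678 RPM and those of alveolar type 2 cells to 4490 to 30184 RPM, but the 5 leukocyte transcripts Ptprc (which encodes CD45), Laptm5, Coro1a, Cd53 and Cd52 were all present in every library and summed to 4686 to 5924 RPM, above the 1002 to 1886 RPM of Epcam, Cdh1, Krt8, Krt18 and Krt19 together. Leukocyte RNA was thus in all the libraries, and most of the receptors described here are known from leukocytes. The paper reports that these fractions were almost all epCAM-positive, a share of cells that cannot be set directly against sums of RNA. The E260A substitution cannot be read from counts per gene.

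Chemokines are small secreted proteins that direct the migration of leukocytes along a gradient. They are named by the spacing of their conserved cysteines (CC, CXC, CX3C and XC), and they act on receptors with 7 membrane-spanning helices that couple to Gi proteins and lead to calcium release, Rac activation and movement of the cell. In the lung, epithelium and macrophages release ligands that attract neutrophils, monocytes, eosinophils, dendritic cells and lymphocytes, and smoke is a known stimulus of such recruitment.

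Ccl22, Cx3cl1 and Ccl17 lie side by side on the plus strand of chromosome 8, and Cxcl9 lies on the minus strand of chromosome 5. Their promoters are shown since Ccl22 and Ccl17 were lower in all CS libraries than in all controls while Cx3cl1 between them was not, and Cxcl9 had the smallest unadjusted p with CS among all ligands and receptors. Each sequence is the 250 bases before the RefSeq start of the gene in GRCm38.p6, written in the direction of the gene. The positions are chr8:94745434-94745683 for Ccl22, chr8:94771930-94772179 for Cx3cl1, chr8:94810203-94810452 for Ccl17 and chr5:92328080-92328329 for Cxcl9. Capitals mark a match to the interferon-gamma activated site (GAS), TTCNNNGAA.
Ccl22: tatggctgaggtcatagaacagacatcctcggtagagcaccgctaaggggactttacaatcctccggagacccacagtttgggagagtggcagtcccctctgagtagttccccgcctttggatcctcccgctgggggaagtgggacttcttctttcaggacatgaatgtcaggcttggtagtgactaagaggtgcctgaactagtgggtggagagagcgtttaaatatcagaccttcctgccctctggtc
Cx3cl1: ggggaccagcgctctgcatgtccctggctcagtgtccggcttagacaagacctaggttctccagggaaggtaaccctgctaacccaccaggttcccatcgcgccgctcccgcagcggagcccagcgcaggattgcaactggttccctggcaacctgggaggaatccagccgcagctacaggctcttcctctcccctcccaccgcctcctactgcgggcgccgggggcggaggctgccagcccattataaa
Ccl17: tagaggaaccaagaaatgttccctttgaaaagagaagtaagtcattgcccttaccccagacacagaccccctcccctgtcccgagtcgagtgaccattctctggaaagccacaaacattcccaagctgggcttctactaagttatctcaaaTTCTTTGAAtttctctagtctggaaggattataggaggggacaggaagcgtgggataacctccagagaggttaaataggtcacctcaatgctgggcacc
Cxcl9: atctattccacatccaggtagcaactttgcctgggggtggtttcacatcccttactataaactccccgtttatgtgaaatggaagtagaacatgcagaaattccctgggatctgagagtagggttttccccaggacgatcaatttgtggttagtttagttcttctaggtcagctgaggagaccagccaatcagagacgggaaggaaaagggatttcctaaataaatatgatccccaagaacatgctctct

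Of the 47 ligands and receptors with a mean count of at least 10 over the 8 libraries, 34 were matched to a RefSeq promoter by gene identifier, symbol or synonym, and the same windows of 27025 genes served as background. Among those without a match were Ccl2, Ccl5, Ccl11, Ccl24, Cxcl17, Ccr7 and Cxcr5, so that the shares leave them out. A gene was counted once if any of its windows held the motif. The NF-κB motif was found on either strand in 9 of the 34 (26.5%), against 8.23% of all 27025 genes. These were Ccl9, Ccl20, Ccr1, Ccr3, Ccr6, Cxcl1, Cxcl2, Cxcl3 and Cxcl10. Cxcl1, Cxcl2 and Cxcl3 lie near each other on chromosome 5 and share the letters GGGAATTTCC, so that they need not be independent. The GAS motif was found in 3 (8.82%, against 8.13%), Ccl17 at -99 to -91 from the start, Ccr6 and Cxcl14, and the interferon-stimulated response element (ISRE), GAAANNGAAA, in 2 (5.88%, against 3.46%), Cxcl10 and Cxcl14. In Ccr6 the NF-κB and GAS matches lay in different windows. The promoters of Ccl22, Cx3cl1 and Cxcl9 shown above held none of these motifs in this window. A match is a run of letters and not evidence of binding.

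Of the 58 ligands and receptors, 47 had a mean count of at least 10 and were tested, among them 28 ligands (14 of 24 CC, 12 of 12 CXC, Cx3cl1 and Xcl1) and 19 receptors. Only 19, 8 ligands and 11 receptors, reached the mean count of 200 that the study set as its minimum. To compare levels between genes, RPM were divided by CDS length in kilobases (RPKM). Ccl6, a rodent ligand of Ccr1 that macrophages make in abundance, was the highest with a mean of 8225 RPKM (3250 to 15704 over the 8 libraries). Ccl5 followed with 1055 RPKM (407 to 1574), and Cxcl15 (lungkine), a neutrophil chemoattractant made by lung epithelium, with 945 RPKM (222 to 1557), so that the order of these last 2 was within their spread. Cxcl17, a mucosal chemokine of the airway, was next at 389 RPKM. Cxcr4, the receptor of Cxcl12, was the most abundant receptor at 391 RPKM (287 to 509), above Ccr7 at 141 RPKM (89.5 to 220) in every library. In Ccr1 (106 RPKM), Ccr2 (101 RPKM), Cxcr6 (72.7 RPKM) and Cxcr1 (71.7 RPKM) the ranges over the libraries overlapped.

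**Figure D1:**
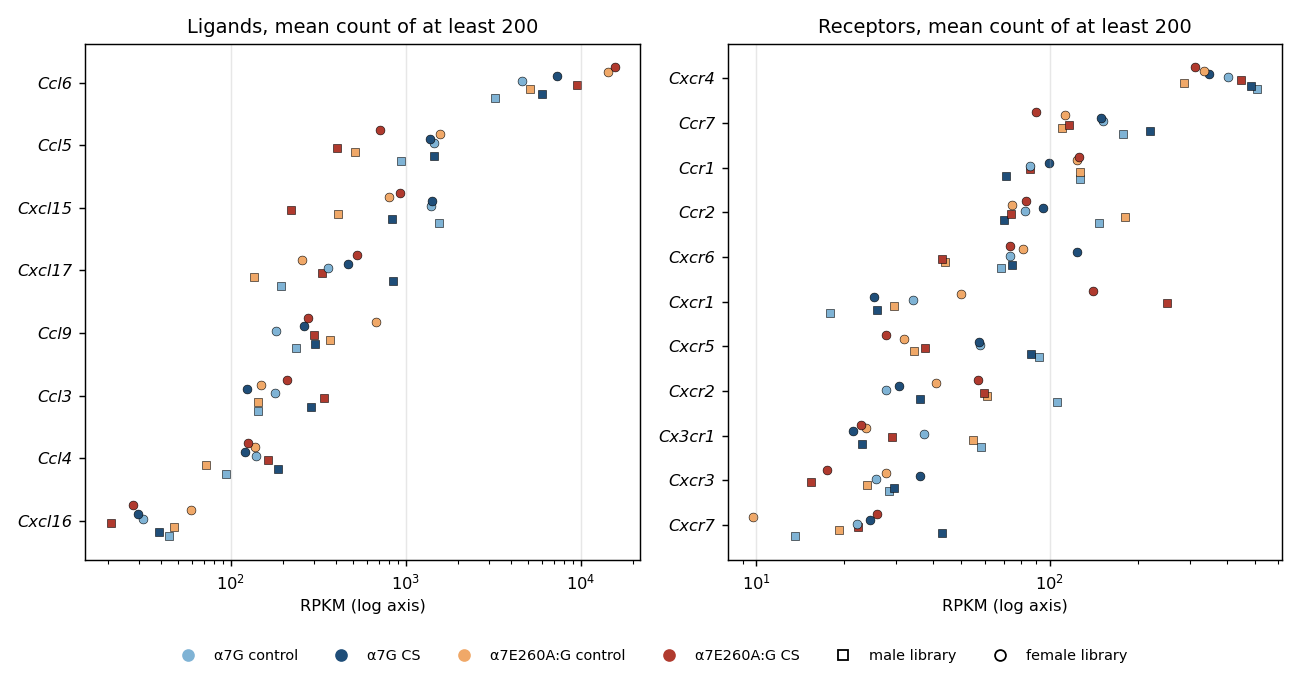
RPKM (log axis) of the 8 ligands and 11 receptors with a mean count of at least 200, with 1 point per library, colored by group and shaped by sex, sorted by the mean over libraries. Ccl6 lies above every other ligand in each library, and the α7E260A:G CS libraries stand apart from the other 6 for Cxcr1.

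Ligand transcripts together took 2588 to 6672 RPM and receptor transcripts 1057 to 1570 RPM. Ccl6 alone was 43.3% and 51.4% of the ligand counts in the male and female α7G control and 57.7% and 61.6% in α7G CS. It was 69.0% and 76.1% in α7E260A:G control and 82.5% and 81.9% in α7E260A:G CS, so that its share was higher in each α7E260A:G library than in any α7G library.

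To determine how the α7 genotype relates to chemokine expression, the 4 α7E260A:G libraries were compared with the 4 α7G libraries over both exposures. Cxcr1, a neutrophil receptor for CXC ligands, was 3.63-fold higher in α7E260A:G, mainly after CS, and Ccl6 was 2.38-fold higher (1.25 on the log2 scale, or 0.66 without the female α7E260A:G control). The lymphocyte receptors Cxcr5, Ccr6 and Ccr7 were 2.11-, 1.98- and 1.53-fold lower, and each was lower in every α7E260A:G library than in every α7G library. No ligand or receptor passed the adjusted threshold of 0.05 in the quasi-likelihood test of edgeR, adjusted by Benjamini-Hochberg (0 of 47, against 0.0953% of all 13637 genes tested), and these differences are therefore given as values. The smallest adjusted p was 0.108, for Cxcr1 in the same edgeR test.

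At an unadjusted p under 0.05 edgeR found 8 of the 47, or 17.0%, against 11.5% of all genes. Higher in α7E260A:G were 5 (Ccl6, Ccl9, Ccl22, Cxcl9 and Cxcr1, against 5.97% of genes) and lower were 3 (Ccr6, Ccr7 and Cxcr5, against 5.49%). Scaling by library size made these counts 5 and 5. The median log2 fold change was 0.05 over the 47 and 0.03 over all genes. DESeq2 called 4 at an adjusted p under 0.05 (Ccr6, Cxcl9, Cxcr1 and Cxcr5, against 3.78% of genes). With the male α7E260A:G control left out, edgeR called 6 (Ccl6, Ccl9, Ccr6, Cxcl9, Cxcr1 and Cxcr5, against 3.07% of genes), and with the female α7E260A:G control left out it called 3 (Ccl5, Cxcr1 and Cxcr5, against 4.74% of genes).

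By RPM alone, 3 of the 47 did not overlap between the genotypes, against 7.88% of all genes tested. Of the 47, 0 were higher in all 4 α7E260A:G than in all 4 α7G libraries (2.34% of all genes) and 3 were lower (6.38%, against 5.54% of all genes), namely Ccr6, Ccr7 and Cxcr5. In the 4 pairs matched for sex and exposure, 5 were higher in each pair (Ccl6, Ccl11, Ccl22, Cxcl9 and Cxcr1, 10.6% against 6.72% of genes) and 6 were lower in each (Ccr6, Ccr7, Cxcl15, Cxcr4, Cxcr5 and Xcr1, 12.8% against 15.5%). The 3 were receptors (15.8% of the 19 receptors), and of the 28 ligands 0 did not overlap, while the share lower over both kinds was close to that of all genes. Without 1 library the count of 3 became 5 for each of 6 libraries (all but the female α7G CS and the female α7E260A:G CS, where it was 3 and 4), against 9.72 to 13.1% of all genes, and Ccr6, Ccr7 and Cxcr5 were among them each time.

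Cxcr1 (ENSMUSG00000048480.4, chromosome 1, 74238359 to 74241205 on the minus strand of mm9) lies next to Cxcr2, and both receptors bind neutrophil-attracting CXC ligands. Cxcr1 was at 18.9 RPM in the male α7G control, 36.1 in the female one, 27.2 and 26.5 in α7G CS, 30.9 and 52.5 in α7E260A:G control, and 264 and 148 in α7E260A:G CS (here and below, the male value is given before the female). The α7E260A:G CS libraries were above all others. The male α7E260A:G control was below the female α7G control, so that the genotypes overlapped for Cxcr1. Its log2 fold change between the genotypes was 1.86 ± 0.33 (SE, n = 4 and 4; unadjusted p = 0.000568, model fitted by edgeR). Cxcr2 was at 115 and 29.7 RPM in α7G control, 38.9 and 32.9 in α7G CS, 66.2 and 44.3 in α7E260A:G control and 64.2 and 61.3 in α7E260A:G CS, and the log2 fold change of 0.29 ± 0.36 was smaller than its error. The 8 tested markers of neutrophils, among them S100a8 and S100a9, all had a positive fold change between the genotypes, 1 with an unadjusted p under 0.05. Their summed level overlapped (1461 to 2804 RPM in α7G and 1249 to 3472 RPM in α7E260A:G), and within α7E260A:G it was 1289 to 3472 RPM in the controls and 1249 to 2678 RPM after CS, where Cxcr1 was higher in both sexes. None of these markers was at 0, and their part in the Cxcr1 values was not tested.

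CXC ligands that attract neutrophils gave a different picture (Cxcl5 is described below with the CS comparison). Cxcl15 was at 780 and 696 RPM in α7G control, 416 and 713 in α7G CS, 205 and 401 in α7E260A:G control and 111 and 464 in α7E260A:G CS. It was lower in α7E260A:G in all 4 pairs, but the female α7E260A:G CS library exceeded the male α7G CS library, and the log2 fold change of -0.98 ± 0.51 had an unadjusted p of 0.0917 in edgeR's fit. Over the same comparison the alveolar type 2 markers were lower in 9 of 9 and the club cell markers in 5 of 5. Type 2 markers summed to 19570 to 30184 RPM in α7G and 4490 to 14490 RPM in α7E260A:G, without overlap, and no marker was at 0 in all libraries. Their part in the Cxcl15 values was not tested. Cxcl1, Cxcl2 and Cxcl3, which act on Cxcr2, were low, with at most 2.91, 14.4 and 13.7 RPM. Cxcl2 and Cxcl3 share 19.0% and 19.3% of their 50-base CDS stretches, so that reads can be assigned to either of them uncertainly.

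Ccl6 (ENSMUSG00000018927.3, chromosome 11, 83401384 to 83406589, minus strand) was at 1131 and 1605 RPM in α7G control, 2084 and 2547 in α7G CS, 1786 and 4963 in α7E260A:G control and 3318 and 5465 in α7E260A:G CS. It was higher in α7E260A:G in all 4 pairs, and the groups overlapped only through the male α7E260A:G control. The log2 fold change was 1.25 ± 0.43 (SE, n = 4 and 4), with an adjusted p of 0.295 by edgeR's quasi-likelihood test, and it was 1.57 without the male and 0.66 without the female α7E260A:G control. Its neighbor Ccl9, also a ligand of Ccr1, was at 92.6 and 71.0 RPM in α7G control, 118 and 102 in α7G CS, 144 and 264 in α7E260A:G control and 117 and 109 in α7E260A:G CS (0.79 ± 0.27 on the log2 scale, adjusted p = 0.298 by edgeR). The genotypes were thus apart for Ccl9 in the controls and overlapped after CS. Ccr1 itself was at 75.9 to 135 RPM in α7G and 91.0 to 135 RPM in α7E260A:G. All 14 alveolar macrophage markers were higher in α7E260A:G, 9 with an unadjusted p under 0.05, and their sum was 10664 to 18220 RPM in α7G and 25188 to 41044 RPM in α7E260A:G with none at 0. That sum is weighted by abundance, and the list held Chi3l3, which the paper places among its most abundant transcripts. In bulk RNA a change in the number of cells of a type cannot be told apart from a change in RNA per cell, and the part of these markers in the Ccl6 and Ccl9 values was not tested.

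Cxcr5, Ccr6 and Ccr7, which direct the traffic of lymphocytes, had lower values in each α7E260A:G library than in each α7G library, but none passed the adjusted threshold. Cxcr5 (ENSMUSG00000047880.7, chromosome 9, 44319871 to 44334504, minus strand), which brings B cells to Cxcl13, was at 103 and 65.2 RPM in α7G control, 97.2 and 64.6 in α7G CS, 38.6 and 35.7 in α7E260A:G control and 42.3 and 31.0 in α7E260A:G CS. The 4 α7E260A:G libraries were all below the 4 α7G libraries, the values of the exposures overlapped within each genotype, and the log2 fold change was -1.08 ± 0.21 (SE, n = 4 and 4), with an adjusted p of 0.116 by edgeR's quasi-likelihood test. Ccr6, found on B cells and on T cells that make interleukin 17, was at 32.6 and 20.7 RPM in α7G control, 21.5 and 27.8 in α7G CS, 17.5 and 10.3 in α7E260A:G control and 11.3 and 10.6 in α7E260A:G CS (-0.98 ± 0.23 on the log2 scale, adjusted p = 0.148 by edgeR). Ccr7, which directs naive lymphocytes and mature dendritic cells to lymph nodes, was at 202 and 172 RPM in α7G control, 249 and 169 in α7G CS, 125 and 128 in α7E260A:G control and 132 and 101 in α7E260A:G CS (-0.62 ± 0.19 on the log2 scale, adjusted p = 0.245 by edgeR).

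The 5 B cell markers, among them Ms4a1, Cd79a, Cd79b and Pax5, were lower in α7E260A:G as well, 4 of them with an unadjusted p under 0.05 and 0 with an adjusted p under 0.05 by edgeR. They summed to 1100 to 1883 RPM in α7G and 605 to 768 RPM in α7E260A:G, without overlap and with none at 0. T cell markers overlapped (1004 to 1494 RPM in α7G and 870 to 1474 RPM in α7E260A:G, 7 of 9 lower). The part of the B cell and T cell markers in the values of Cxcr5, Ccr6 and Ccr7 was not tested. The ligands of these receptors were sparse. Cxcl13 was between 1.75 and 25 RPM with no order by group, and Ccl20, the ligand of Ccr6, was between 1.10 and 3.95 RPM. Ccl19 and the Ccl21 genes, which act on Ccr7, had a mean count under 10 or no count.

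**Figure D2:**
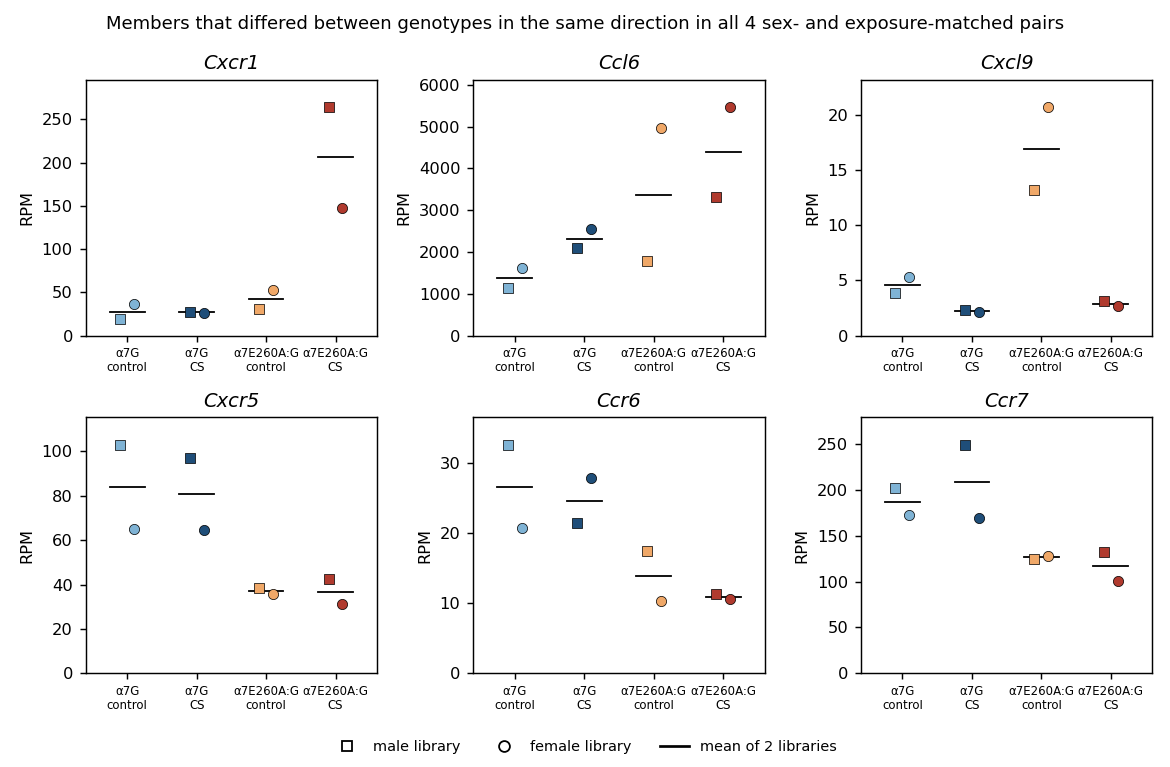
RPM of 6 ligands and receptors in each of the 4 groups, with squares for male and circles for female libraries and a line at the mean of the 2. Cxcr5, Ccr6 and Ccr7 are lower in each α7E260A:G library than in each α7G library, Cxcr1 is at 148 to 264 RPM in α7E260A:G CS only, and Cxcl9 is high in α7E260A:G control.

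For other lymphocyte and monocyte receptors the genotypes overlapped. Cxcr4 was at 375 to 548 RPM in α7G and 309 to 483 RPM in α7E260A:G, lower in each of the 4 pairs with a log2 fold change of -0.25 ± 0.21. Cxcr3, a receptor of activated T cells and NK cells, was at 28.3 to 39.7 RPM in α7G and 17.0 to 30.3 RPM in α7E260A:G. Cxcr6, found on resident T cells, was at 71.7 to 131 and 45.1 to 85.7 RPM in the same order. Ccr2, the receptor of inflammatory monocytes, was at 78.3 to 165 and 82.5 to 202 RPM, with log2 fold change 0.10 ± 0.28, and its highest values were those of both male control libraries. Of its 50-base CDS stretches 10.3% are shared with another gene, which leaves part of its reads uncertain.

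The effect of CS was examined by comparing the 4 CS libraries with the 4 controls over both genotypes. The ligands of dendritic cell and T cell traffic, Ccl17, Ccl22 and Cxcl9, and the eotaxin Ccl24 were 2.45- to 4.10-fold lower after CS. Ccl11, also an eotaxin, and Cxcr7, which scavenges Cxcl12, were 2.59- and 1.85-fold higher. For each of these 6 the CS libraries did not overlap the controls. In edgeR's quasi-likelihood test, adjusted by Benjamini-Hochberg, 0 of the 47 had an adjusted p under 0.05 (0% of all genes), and the smallest adjusted p was 0.612.

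At an unadjusted p under 0.05 edgeR found 14 of the 47 with CS, or 29.8%, against 7.63% of all genes. Lower were 10, among them Ccl8, Ccl17, Ccl22, Ccl24, Cx3cr1, Cxcl5, Cxcl9, Cxcl16 and Xcr1, against 4.46% of genes, and higher were 4 (Ccl11, Cxcl17, Cxcr1 and Cxcr7), against 3.18%. With an offset for CDS length these counts became 14 and 3. The median log2 fold change with CS was -0.39 over the ligands, -0.17 over the receptors and -0.23 over all 47, beside 0.01 over all genes, and with the length offset it was -0.49 over the 47 beside 0.01. DESeq2 called 4 at an adjusted p under 0.05 (Ccl11, Ccl22, Ccl24 and Cxcl9, against 0.499% of genes). Without the male α7E260A:G control edgeR called 1, Cxcl9, against 0.733% of genes.

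Without overlap between CS and control RPM were 7 of the 47, against 2.77% of all genes, 2 higher (Ccl11 and Cxcr7, 4.26% against 1.84% of all genes) and 5 lower (among them Ccl17, Ccl22, Ccl24 and Cxcl9, 10.6% against 0.931%). Without 1 library the count of 7 became 8 to 10, while the share of all genes became 3.61 to 12.6%. It was 10 against 12.6% of all genes without the female α7E260A:G control, and 8 against 4.33% without the male one. Leaving out the male α7E260A:G CS library gave 9 against 10.5%, so that the distance from all genes depended on single libraries. In the 4 pairs of the same sex and genotype, 5 were higher after CS in each (Ccl6, Ccl11, Cxcl12, Cxcl17 and Cxcr7, 10.6% against 11.4% of genes) and 10 were lower in each (among them Ccl17, Ccl22, Ccl24, Ccr8, Cx3cr1, Cxcl5, Cxcl9, Cxcl16 and Xcr1, 21.3% against 11.6%). The share lower after CS in all pairs was above that of all genes and the share higher in all pairs was not, which is a description without a test. After TMM scaling Ccl17, Ccl22 and Cxcr7 overlapped while Cx3cr1 and Xcr1 did not, and after correction for CDS length Ccl11 and Ccl24 overlapped while Cxcl5 did not.

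Ccl17 (ENSMUSG00000031780.1, chromosome 8, 97334353 to 97335935, plus strand of mm9) and Ccl22 (ENSMUSG00000031779.3, 97269490 to 97275599) are the ligands of Ccr4, through which T helper 2 cells and regulatory T cells are attracted. Ccl17 was at 24.8 and 14.7 RPM in α7G control, 6.87 and 10.7 in α7G CS, 30.1 and 59.9 in α7E260A:G control and 4.11 and 14.2 in α7E260A:G CS. Ccl22 was at 9.02 and 8.33 RPM in α7G control, 3.49 and 2.82 in α7G CS, 12.8 and 15.1 in α7E260A:G control and 4.61 and 7.41 in α7E260A:G CS. Both ligands were lower after CS in each genotype and sex, and every CS library was below every control. The log2 fold change was -1.69 ± 0.49 for Ccl17 (SE, n = 4 and 4; adjusted p = 0.636 by edgeR), and it was -1.28 without the female α7E260A:G control and -2.39 without the female α7E260A:G CS library. For Ccl22 it was -1.30 ± 0.30 with CS (adjusted p = 0.612 by edgeR) and 0.92 ± 0.30 between the genotypes (adjusted p = 0.275 by edgeR). Cx3cl1 (fractalkine), which lies between these 2 genes, was at 16.3 to 24.6 RPM in all libraries, with a log2 fold change of -0.04 ± 0.19. Ccr4 was low, at 0.815 to 4.02 RPM, and was lower after CS in 3 of 4 pairs.

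Cxcl9 (ENSMUSG00000029417.7, chromosome 5, 92750357 to 92757105, minus strand), an interferon-gamma induced ligand of Cxcr3, was at 3.85 and 5.34 RPM in α7G control, 2.33 and 2.14 in α7G CS, 13.2 and 20.7 in α7E260A:G control and 3.12 and 2.65 in α7E260A:G CS. The α7E260A:G controls were above all other libraries, and all CS libraries lay together at 2.14 to 3.12 RPM. The log2 fold change with CS was -1.79 ± 0.32 (unadjusted p = 0.000644, from edgeR's fit), and between the genotypes it was 1.22 ± 0.32 (adjusted p = 0.188 by edgeR). Cxcl10, the other measured ligand of Cxcr3, was at 0.249 to 4.02 RPM, close to the floor, and showed no order by group. For Cxcr3 itself the log2 fold change with CS over both genotypes was -0.15 ± 0.21.

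The eotaxins, which attract eosinophils through Ccr3, differed in opposite directions with CS. Ccl24 was at 2.77 and 1.28 RPM in α7G control, 0.582 and 0.790 in α7G CS, 5.24 and 4.93 in α7E260A:G control and 1.25 and 0.442 in α7E260A:G CS, that is 4 to 54 counts. Ccl11 was at 4.57 and 2.35 RPM in α7G control, 8.73 and 9.36 in α7G CS, 6.46 and 2.56 in α7E260A:G control and 10.2 and 10.5 in α7E260A:G CS. The log2 fold change was -2.04 ± 0.47 for Ccl24 and 1.37 ± 0.33 for Ccl11 (SE, n = 4 and 4), and both had an adjusted p of 0.612 by edgeR. With the offset for CDS length it was -2.42 for Ccl24 and 0.80 for Ccl11. Ccr3 was at 3.49 to 11.5 RPM. The 7 fibroblast markers, among them Col1a1 and Dcn, were higher after CS in 6 of 7 (3 with an unadjusted p under 0.05), with sums of 744 to 2448 RPM in control and 1731 to 2918 RPM in CS libraries and none at 0. Their part in the Ccl11 values was not tested.

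Xcr1 and Cx3cr1 were among the receptors lower after CS in each pair, and neither passed the adjusted threshold. Xcr1, a receptor of cross-presenting dendritic cells, was at 11.8 and 7.26 RPM in α7G control, 4.89 and 3.61 in α7G CS, 11.5 and 4.20 in α7E260A:G control and 2.49 and 3.21 in α7E260A:G CS. Xcr1 was lower after CS in every pair, and the groups overlapped only between the female α7E260A:G control and the male α7G CS. Cx3cr1, the monocyte receptor of Cx3cl1, was at 62.1 and 39.6 RPM in α7G control, 24.4 and 22.7 in α7G CS, 58.1 and 25.1 in α7E260A:G control and 30.8 and 24.1 in α7E260A:G CS. The log2 fold change was -1.22 ± 0.36 for Xcr1 and -0.79 ± 0.24 for Cx3cr1, with unadjusted p of 0.00964 and 0.012 in edgeR's fit.

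Markers of cells known to carry these receptors also had negative fold changes with CS. All 9 monocyte and interstitial macrophage markers, chemokine receptors not counted among them, had a negative fold change, 5 with an unadjusted p under 0.05, and they summed to 887 to 2923 RPM in control and 741 to 1084 RPM in CS libraries. All 8 dendritic cell markers had a negative fold change, 4 with an unadjusted p under 0.05, and their sums of 116 to 213 RPM in control and 76.3 to 106 RPM in CS libraries did not overlap. No marker of either list was at 0 in all libraries. The part of these markers in the values of Xcr1, Cx3cr1, Ccl17, Ccl22, Ccl24 and Cxcl9 was not tested.

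**Figure D3:**
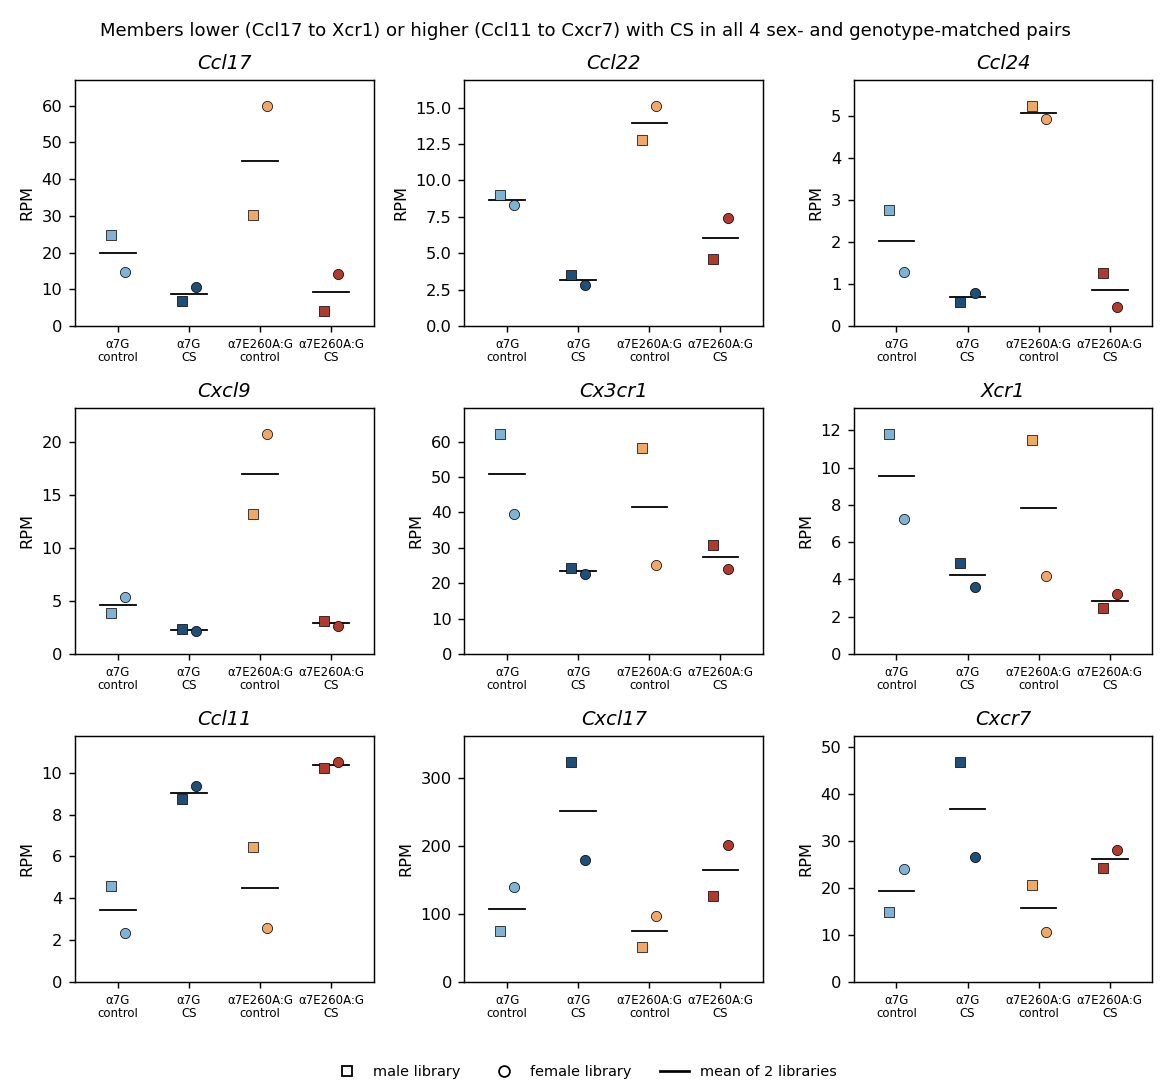
RPM of 9 ligands and receptors in each of the 4 groups, with squares for male and circles for female libraries and a line at the mean of the 2. Ccl17, Ccl22, Ccl24, Cxcl9, Cx3cr1 and Xcr1 are lower and Ccl11, Cxcl17 and Cxcr7 higher after CS in each pair of the same sex and genotype.

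**Figure D4:**
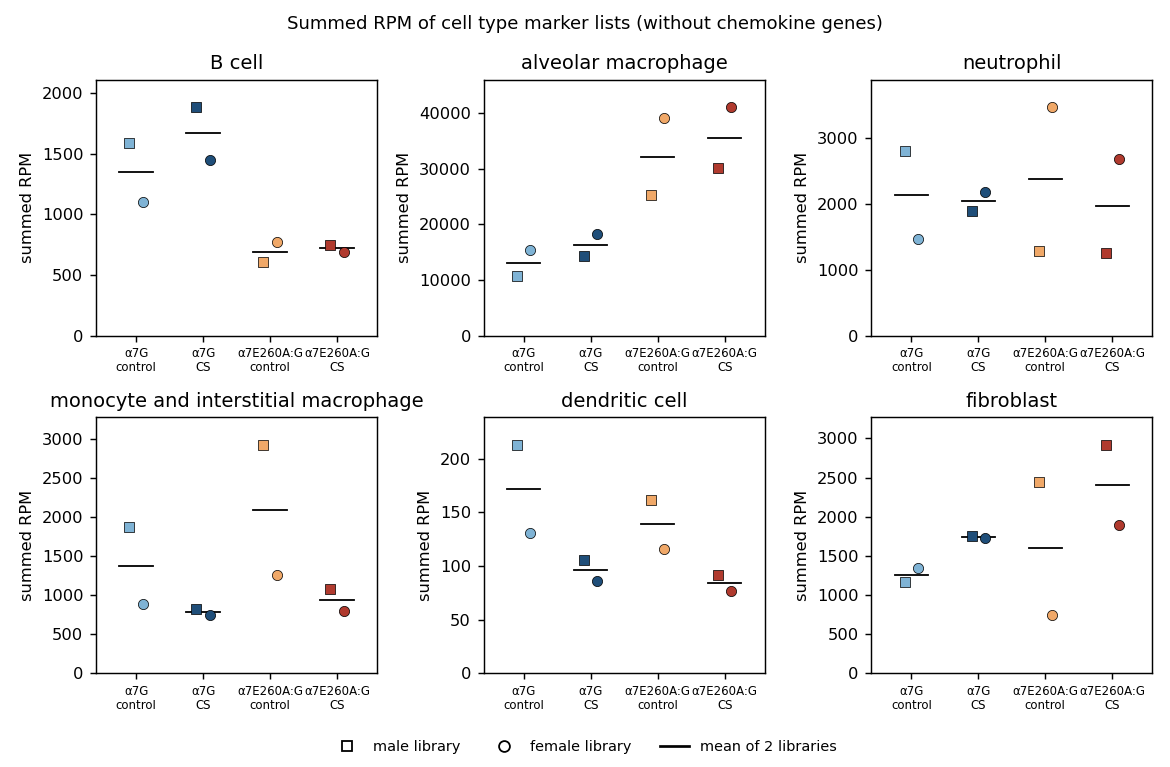
Summed RPM of 6 cell type marker lists by group, chemokine genes left out, with squares for male and circles for female libraries and a line at the mean of the 2. B cell and alveolar macrophage sums separate the genotypes and dendritic cell sums separate CS from control, while neutrophil sums overlap in both comparisons. The most abundant genes of a list weigh most in its sum.

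Cxcl17 was at 74.8 and 139 RPM in α7G control, 323 and 179 in α7G CS, 51.9 and 97.7 in α7E260A:G control and 127 and 202 in α7E260A:G CS. It was higher after CS in all 4 pairs, although the female α7G control exceeded the male α7E260A:G CS library, and the log2 fold change was 1.20 ± 0.39 (adjusted p = 0.641 by edgeR). The general epithelial markers had a positive fold change with CS in 4 of 5, 3 with an unadjusted p under 0.05, and summed to 1002 to 1557 RPM in control and 1281 to 1886 RPM in CS libraries with none at 0. Club cell markers had a positive fold change in 3 of 5, and their sums overlapped. The part of these markers in the Cxcl17 values was not tested.

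Cxcl12, which retains leukocytes and progenitors through Cxcr4, was at 5.89 and 10.4 RPM in α7G control, 16.3 and 12.1 in α7G CS, 8.41 and 4.02 in α7E260A:G control and 8.60 and 7.30 in α7E260A:G CS. It was higher after CS in each pair, by 8.60 against 8.41 RPM in the male α7E260A:G pair. The log2 fold change of Cxcl12 was 0.63 ± 0.30, or 0.20 with the offset for CDS length. Cxcr7, which binds and removes Cxcl12, was at 14.8 and 23.9 RPM in α7G control, 46.7 and 26.6 in α7G CS, 20.7 and 10.6 in α7E260A:G control and 24.2 and 28.1 in α7E260A:G CS. All CS libraries were above all controls, by as little as 24.2 against 23.9 RPM, and the log2 fold change was 0.89 ± 0.29. For Cxcr4 the log2 fold change with CS was 0.09 ± 0.21, and negative with the offset for CDS length.

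Cxcl5 and Ccl8 had the lowest log2 fold changes with CS and a wide spread. Cxcl5, an epithelial attractant of neutrophils, was at 13.1 and 2.24 RPM in α7G control, 0.815 and 0.902 in α7G CS, 1.10 and 4.66 in α7E260A:G control and 0.249 and 1.22 in α7E260A:G CS. Its log2 fold change of -2.52 ± 0.82 was the lowest of the 47 and rests on 2 to 109 counts. Without 1 library it was between -3.39 (female α7E260A:G CS left out) and -1.67 (male α7G control left out). Ccl8, which acts on Ccr8 in mice, was at 13.6 and 0.534 RPM in α7G control, 1.28 and 1.92 in α7G CS, 12.7 and 16.8 in α7E260A:G control and 1.5 and 3.54 in α7E260A:G CS. It was higher, not lower, in the female α7G pair (-2.27 ± 0.81 on the log2 scale, or -0.47 without the male α7G control). Ccr8 was at 3.49 to 6.58 RPM in control and 1.75 to 4.17 RPM in CS libraries and was lower in each pair. The monocyte attractants Ccl2, Ccl7 and Ccl12, which act on Ccr2, reached at most 13.7, 6.13 and 6.98 RPM, and each was higher in 2 of 4 pairs. Ccl3 and Ccl4, ligands made by activated macrophages and NK cells, were at 34.2 to 94.6 and 19.9 to 51.7 RPM, with log2 fold changes of 0.66 ± 0.29 and 0.42 ± 0.32. Within α7G their fold changes were positive, and negative with the offset for CDS length.

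**Figure D5:**
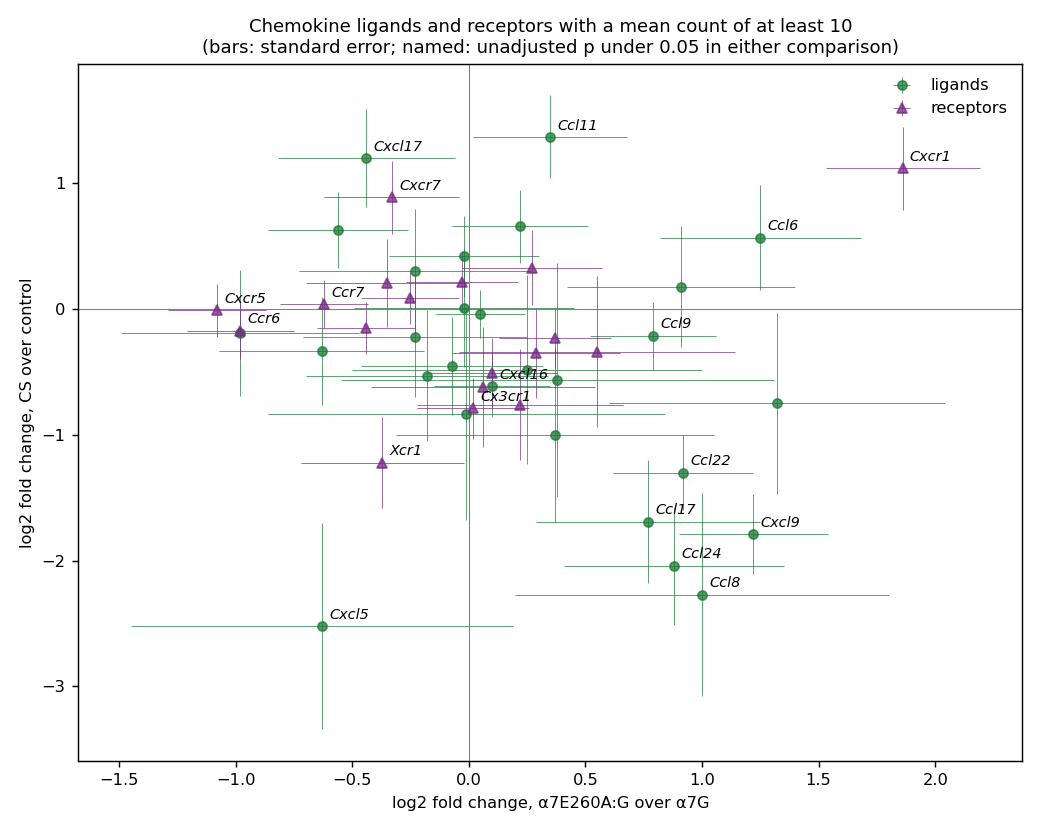
log2 fold change between the genotypes (horizontal axis) against log2 fold change with CS (vertical axis) of the ligands and receptors with a mean count of at least 10 (1 of the 47 is not plotted), with bars of 1 standard error. The named points have an unadjusted p under 0.05 in either comparison. Ccl17, Ccl22, Ccl24, Ccl8 and Cxcl9 lie to the lower right, and Cxcr1 alone lies far to the upper right. The 2 axes come from the same 8 libraries.

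Whether the response to CS differed with the α7 genotype was examined within each genotype and as an interaction. In α7G 0 of 47 had an adjusted p under 0.05 by edgeR (0% of all genes), and 6 had an unadjusted p under 0.05 (6.71% of genes), 3 higher (Ccl11, Cxcl17 and Cxcr7, against 2.67%) and 3 lower (Ccl22, Cx3cr1 and Cxcl5, against 4.04%). With the offset for CDS length 2 were higher and 9 lower. In α7E260A:G 0 of 47 had an adjusted p under 0.05 (0.00733% of genes), and 13 had an unadjusted p under 0.05 (3.14% of genes), 3 higher (Ccl11, Ccr3 and Cxcr1, against 1.52%) and 10 lower (among them Ccl9, Ccl17, Ccl22, Ccl24, Cxcl3, Cxcl9, Cxcl16, Cxcr3 and Xcr1, against 1.62%), or 2 and 15 with the length offset. DESeq2 called 0 in α7G (0.183% of genes) and 2 in α7E260A:G (Cxcl9 and Cxcr1, 0.257%). Leaving out the male α7E260A:G control, edgeR called Ccl9 and Cxcl9 in α7E260A:G, against 1.04% of genes. The median log2 fold change with CS over the 47 was 0.00 in α7G and -0.62 in α7E260A:G, with 0.00 and -0.02 over all genes. With the offset for CDS length the medians were -0.25 and -0.83, so that the value in α7G depended on that correction.

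The interaction, the log2 fold change with CS in α7E260A:G minus that in α7G, was called for 0 of the 47 by edgeR at an adjusted p under 0.05 (0% of all genes) and for 0 by DESeq2 (0.0807%). At an unadjusted p under 0.05 edgeR found 8 (2.18% of genes), 2 higher (Ccr3 and Cxcr1, against 0.902%) and 6 lower (Ccl9, Cxcl3, Cxcl9, Cxcl16, Cxcr3 and Xcl1, against 1.28%), or 3 and 5 with the replicate block and length offset together. The median was -0.41 over the 47 and 0.02 over all genes, and it was -0.28 beside -0.17 with the length offset and -0.23 beside 0.21 with library size scaling. Without the male α7E260A:G control edgeR called Ccl9 and Xcl1, against 0.711% of genes.

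Cxcr1 had the highest interaction, 2.06 ± 0.65 on the log2 scale (unadjusted p = 0.0138 in edgeR's fit), and without 1 library it was between 1.47 (female α7G control left out) and 2.76 (female α7E260A:G control left out). Its log2 fold change with CS was 0.09 ± 0.46 in α7G and 2.15 ± 0.47 in α7E260A:G. For Ccl9 the values were 0.57 ± 0.38 and -0.98 ± 0.38 with an interaction of -1.56 ± 0.54, and it was high in the α7E260A:G controls and not after CS. With the offset for CDS length the Ccl9 value in α7G turned negative and the interaction was -0.91, and without the female α7E260A:G control the interaction was -0.77. Xcl1, a ligand of Xcr1 released by NK cells and CD8 T cells, was at 6.49 and 11 RPM in α7G control, 20.3 and 19.9 in α7G CS, 7.31 and 28.0 in α7E260A:G control and 6.98 and 8.96 in α7E260A:G CS. Its interaction of -2.62 ± 0.95 was -1.03 without the female α7E260A:G control, the male pair being at 7.31 and 6.98 RPM. Cxcr3 was at 31.3 and 28.3 RPM in α7G control, 32.5 and 39.7 in α7G CS, 26.2 and 30.3 in α7E260A:G control and 17.0 and 19.1 in α7E260A:G CS, so that the α7E260A:G CS libraries were the lowest. The interaction for Cxcr3 was -1.14 ± 0.42.

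Ccr3, a receptor of eosinophils and basophils, was at 5.65 and 7.79 RPM in α7G control, 3.49 and 5.87 in α7G CS, 4.39 and 4.29 in α7E260A:G control and 11.5 and 7.74 in α7E260A:G CS. It was lower after CS in both α7G pairs and higher in both α7E260A:G pairs. The 5 mast cell and basophil markers had a positive fold change with CS in 4 of 5, 2 with an unadjusted p under 0.05, and none was at 0. They summed to 59.5 and 57.4 RPM in α7G control, 74.9 and 53.1 in α7G CS, 60.9 and 36.9 in α7E260A:G control and 113 and 86.1 in α7E260A:G CS, where Ccr3 was above its control in both sexes. Their part in the Ccr3 values was not tested.

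Cxcl16, a ligand tethered to macrophages that binds Cxcr6, was at 32.7 and 23.2 RPM in α7G control, 28.9 and 21.8 in α7G CS, 35.1 and 43.6 in α7E260A:G control and 15.2 and 20.4 in α7E260A:G CS. The interaction was -1.22 ± 0.50, with a log2 fold change of 0.00 ± 0.35 in α7G and -1.22 ± 0.36 in α7E260A:G. An exon of Cxcl16 overlaps Zmynd15 on the opposite strand, and although the library kit was strand-specific the strand setting of the counting is not given in the sources used here. Ccl5, which attracts T cells, was at 256 and 397 RPM in α7G control, 398 and 378 in α7G CS, 141 and 430 in α7E260A:G control and 111 and 194 in α7E260A:G CS. The lowest values were in α7E260A:G, but the female α7E260A:G control was the highest of all libraries, and the interaction of -1.40 had an unadjusted p of 0.147 in edgeR's fit. The 7 NK cell markers had a negative fold change with CS in 7 of 7, 1 with an unadjusted p under 0.05, and none was at 0. They summed to 917 and 1541 RPM in α7G control, 1163 and 1239 in α7G CS, 819 and 1822 in α7E260A:G control and 667 and 1002 in α7E260A:G CS, so that the female α7E260A:G control was the highest, as for Xcl1 and Ccl5. Their part in the Xcl1 and Ccl5 values was not tested. Cxcl3 had the lowest interaction, -3.58 ± 1.44, with 150 counts (13.7 RPM) in the female α7E260A:G control and 5 to 39 counts in the other libraries. Without 1 library it was between -4.69 (female α7G control left out) and -1.53 (male α7G CS left out), and it was -2.32 without the female α7E260A:G control.

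The remaining receptors were rare. Ccr9, the gut-homing receptor, was at 6.49 to 14.6 RPM, and its ligand Ccl25, present under 2 gene identifiers that overlap on the same strand and share 20.9% of the 50-base stretches of 1 of them, had mean counts of 7.38 and 2.75. Ccr10, a receptor of skin and mucosal homing, was at 1.46 to 8.31 RPM, the highest in the female α7E260A:G control. Cxcl14, a ligand common in epithelia, was at 0.601 to 6.94 RPM. Of the 11 genes with a mean count under 10, 5 had 0 counts in every library (Ccl21a, Ccl21b, Ccl21c, Ccl26 and Ccl27b), where a count of 0 allows up to 0.274 to 0.374 RPM per library, and the others were Ccl1, Ccl19, Ccl25 with both identifiers, Ccl27a and Ccr1l1, with 1.62 to 9.88 mean counts. The CDS of Ccl19, Ccl21a, Ccl21b, Ccl21c and Ccl27b consists wholly of 50-base stretches found also in other annotated genes, and in Ccl27a this share is 79.8%. Reads that lie within shared stretches cannot be placed on 1 gene with certainty, although Ccl19 had 0 to 17 counts and Ccl27a 3 to 16. In these genes a count of 0 is not evidence that they were silent.

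Other genes of chemokine signaling were taken from a list of 36, with decoy receptors, related ligands, G protein subunits, GRK and arrestin genes and the Rac and Dock machinery that drives migration. Of these 34 were tested. Between the genotypes 22 had a positive and 12 a negative fold change, and 0 passed the adjusted threshold by edgeR (0.0953% of all genes). An unadjusted p under 0.05 was found for 2 of the 34, against 11.5% of all genes, both lower in α7E260A:G (5.49% of all genes). These were Ppbp, a platelet CXC ligand (9.86 to 45.3 RPM in α7G and 5.42 to 9.35 RPM in α7E260A:G), and Dpp4, a peptidase that truncates chemokines (67.6 to 118 and 51.9 to 61.2 RPM). With CS 15 had a positive and 19 a negative fold change, and 0 passed the adjusted threshold (0% of all genes). Of the 34, 4 had an unadjusted p under 0.05 with CS, against 7.63% of all genes. Higher was 1 (Rarres2, the ligand chemerin, 43.7 to 71.6 RPM in control and 70.8 to 162 RPM in CS libraries), against 3.18%. Lower were 3 (Gpr35, Dock8 and Jak2), against 4.46%. The medians of the 34, 0.09 between the genotypes and -0.06 with CS, lay near the 0.03 and 0.01 of all genes.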

How the data were processed

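The authors prepared strand-specific polyA RNA-Seq libraries from CD45-depleted cells of lavaged distal lungs, aligned the reads with STAR to mm9 (NCBIM37) and counted them with HTSeq on GENCODE M1 coding sequences. The deposited values are these raw counts, 22756 genes per library, with no normalization and no filter. Totals were 8020726 to 10944100, and floors cover counting error only.

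Genes averaging 10 counts or more were tested with edgeR 4.0.16 in R 4.3.3 (TMM, glmQLFit and glmQLFTest, 4 groups, no term for sex, Benjamini-Hochberg over all 13637 genes, threshold 0.05). RPM are counts scaled to a library total of 1000000, and RPKM divide these by the CDS length in GENCODE M1. SE came from the F statistic of each log2 fold change. Promoters were taken from RefSeq tables of GRCm38.p6. Alternatives were DESeq2 1.42.0, other filters and scalings, a lowess offset for CDS length (span 0.667), sex as a replicate block, fits of fewer groups and leaving out each library. Python 3.11.15, numpy 2.4.6, pandas 2.3.3, scipy 1.17.1 and matplotlib 3.10.9 were used.

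The ligands and receptors, the marker lists and the alternatives were chosen with earlier results of these data known. Named with values were those with a mean count of at least 200, those called, the 8 highest and 8 lowest between the genotypes and the 4 highest and 4 lowest with CS among genes that differed the same way in all 4 pairs, each receptor with its ligands, and genes under 10 counts by range. Cxcl14 and the genes of the signaling list with an unadjusted p under 0.05 were named after their values were seen. The values of 1 receptor and 1 marker are not reported here.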

Additional observations from a re-analysis of the deposited data

Results flagged for a closer look

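Among the 19 ligands and receptors with a mean count of at least 200, 5 of 38 sets of 4 libraries of a genotype held a library far from the other 3 by Dixon's test at 95%. The rate of about 1 in 20 sets by chance holds for independent values of a single distribution. Each set here held both sexes and both exposures, and all sets came from the same 8 libraries, so that this rate does not apply. A flagged value cannot be told apart from a difference by sex or exposure. Ccl5 in the male α7G control was at 256 RPM, while the other α7G libraries were at 378 to 398 RPM. Cxcr2 in the male α7G control was at 115 RPM against 29.7 to 38.9 RPM. Cxcr6 in the female α7G CS library was at 131 RPM against 71.7 to 78.6 RPM. Ccr1 in the male α7E260A:G CS library was at 91.0 RPM against 132 to 135 RPM, and Ccr2 in the male α7E260A:G control was at 202 RPM against 82.5 to 92.7 RPM. Male libraries held 4 of these 5 values.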

How the results depend on the processing

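Counts of ligands and receptors with an adjusted p under 0.05 by edgeR (0 in all 5 comparisons) moved with these choices, in addition to those given beside each comparison. Between the genotypes the count was 1 with all genes of at least 1 count or with CS libraries only (Cxcr1 both times, against 0.393% and 0.315% of all genes), 4 with DESeq2, 5 with the CDS length offset (Ccl6, Ccl9, Cxcl9, Cxcr1 and Cxcr5, against 2.57% of all genes) and 0 to 6 when a library was left out. With CS it was 4 with DESeq2, 1 with the length offset (Cxcl9, against 0.0367% of all genes) and 0 to 1 without a library. In α7G it was 3 when its 4 libraries were fitted alone (Cx3cr1, Cxcl17 and Xcl1, against 7.19% of all genes), in α7E260A:G it was 2 with DESeq2 and 0 to 2 without a library, and for the interaction it was 0 to 2 without a library. Genes not overlapping between the genotypes (3) became 5 after correction for CDS length (Ccl6, Ccr6, Ccr7, Cxcl14 and Cxcr5, against 10.9% of all genes) and 3 to 5 without a library (9.72 to 13.1% of all genes), and those not overlapping with CS (7) became 1 (Cxcr7) at a mean count of at least 200. The cause of these shifts was not tested, apart from the 200 minimum, which leaves 19 genes. A group left with 1 library was assumed to vary like the other groups.

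The replicate numbers stand for the sexes (1 for male, 2 for female) and were not shown to pair the libraries. The correlation of deviations from group means between same-sex libraries over 7378 genes was 0.116, 0.459, 0.520, -0.004, 0.039 and 0.759 for the 6 pairs of groups, above 0.1 in 4 of them. With sex as a replicate block edgeR called 0 ligands or receptors in all 5 comparisons, and with block and length offset together it called 7 between the genotypes (adding Ccl5 and Ccr6, against 4.82% of all genes) and 0 in the others. Of 791 alternative values of the 49 fold changes with an unadjusted p under 0.05 or without overlap, 752 kept their direction and side of the adjusted threshold, 39 passed it in addition and 0 changed sign. These 49 were picked from the same data, and 0 of them passed in the main fit. Keeping the side therefore meant staying above the threshold, and the kept signs are no test of stability. Over all 47, the CDS length offset changed the sign of 8 for CS in α7G and of 7 for the interaction. Depth limited the rare ligands, and single libraries held as few as 2 counts of Cxcl5, 2 of Cxcl10 and 4 of Ccl24.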
